A study of Mus musculus with 20 samples.

Results

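The quantity described here is, for each gene, the change seen on deleting Dot1l minus the change seen with a DOT1L inhibitor, both measured in mouse CD4+ T cells cultured as T helper 1 (Th1) cells. It is (KO Th1 minus WT Th1) minus (WT Th1 with SGC0946 minus WT Th1 with SGC0649) on the log2 scale, so a positive value means that a gene changed more upward, or less downward, in the deletion than with the inhibitor. It was computed from 8 of the 20 libraries of the series, 2 in each of 4 groups, for the 13072 of 22048 protein-coding genes with enough counts to test. KO cells came from CD4Cre+ DOT1L FL/FL mice and WT cells from CD4Cre+ mice, so both carried the Cre transgene. CD4+ T cells pre-enriched from spleen and peripheral lymph nodes were stimulated over 4 days by immobilised antibodies to CD3 and CD28 (1 µg/ml each), together with IL-2 and IL-12 (10 ng/ml each) and anti-IL-4 (10 µg/ml). WT cultures of the other pair of groups had 1 µM SGC0946, an inhibitor of the DOT1L enzyme, or 1 µM SGC0649, its inactive control compound, and KO and WT cultures of the first pair had no compound. Viable CD4+ cells were then sorted and their total RNA was sequenced. The labels give neither the age nor the number of mice and do not say whether the libraries of a group came from separate animals, so p-values measure the spread between these libraries, which may be technical.

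DOT1L methylates histone H3 at lysine 79, mostly within the bodies of transcribed genes, and it works with partners of the elongation machinery. Th1 cells are helper T cells that develop under IL-12, are driven by the transcription factor T-bet (Tbx21) and secrete interferon gamma (Ifng). The Cd4 promoter that drives Cre is active in developing T cells in the thymus, before cells reach the naive stage, whereas an inhibitor added to a culture acts on mature cells during that culture. A deletion is meant to take away the protein, whereas an inhibitor of the catalytic site leaves the protein in place. The comparison addresses how far the expression changes in the absence of the gene go beyond those seen with the enzyme inhibited in culture.

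Protein-coding counts ran from 9973998 to 12274847 per Th1 library, with 32.3% to 33.8% of alignments multimapping and therefore not counted. The first principal component of the 8 libraries held 85.9% of the variance and set the KO pair apart from the 6 WT libraries. The SD of the log2 difference between the libraries of a group was 0.169 for KO, 0.115 for WT, 0.145 for SGC0946 and 0.151 for SGC0649. Each effect has its own reference, and SGC0649 against no compound gave 2 calls, Gapdh and Selenbp1, both higher with SGC0649 (616 genes at an unadjusted p under 0.05). The column of the second SGC0946 library carries a leading W1 where its title has W2.

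Dot1l RNA itself was measured at 131 and 146 CPM (counts scaled to library size and composition) in KO, 176 and 186 in WT, 140 and 154 with SGC0946, and 154 and 146 with SGC0649. It was lower in KO than in WT (log2 change −0.39, 95% interval −0.62 to −0.15, adjusted p = 0.0084 by edgeR's quasi-likelihood test with Benjamini-Hochberg adjustment over all genes tested, which applies to every adjusted p and every call below). The change with SGC0946 was −0.03 (−0.27 to 0.20), and the difference of effects was −0.35 (adjusted p = 0.099), not past the threshold of 0.05. That difference was called when the 8 Th1 libraries were fitted alone (−0.34, adjusted p = 0.012). Reads were counted over the whole gene, so this value does not check the loss of the floxed part.

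Examples of genes called in both effects are shown with the 250 bases upstream of their RefSeq start (GRCm38.p6). The bases run 5′ to 3′ on the gene's strand with CpG pairs in capitals. Most genes called in the difference (3837 of 4012) were called in KO and not with SGC0946, and none of these is shown. S100a11 (calcium-binding protein, chr3:93520488-93526287) changed alike in both effects, Mycn (MYC-family transcription factor, chr12:12936096-12941914) changed in both but more in KO, and Il17a (the Th17 cytokine IL-17A, chr1:20730905-20734496) changed in opposite directions. The windows are chr3:93520246-93520495, chr12:12941837-12942086 on the minus strand and chr1:20730655-20730904, and hold 11, 11 and 4 CpG pairs. The gene coordinates are those of the deposited table, whose starts for S100a11 and Mycn differ from RefSeq's, so these windows overlap the ends of the coordinates given.
S100a11: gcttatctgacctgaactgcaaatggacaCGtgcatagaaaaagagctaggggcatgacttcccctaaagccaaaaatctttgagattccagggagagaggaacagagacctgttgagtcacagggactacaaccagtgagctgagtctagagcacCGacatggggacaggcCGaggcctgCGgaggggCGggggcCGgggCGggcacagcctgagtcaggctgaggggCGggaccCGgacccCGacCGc
Mycn: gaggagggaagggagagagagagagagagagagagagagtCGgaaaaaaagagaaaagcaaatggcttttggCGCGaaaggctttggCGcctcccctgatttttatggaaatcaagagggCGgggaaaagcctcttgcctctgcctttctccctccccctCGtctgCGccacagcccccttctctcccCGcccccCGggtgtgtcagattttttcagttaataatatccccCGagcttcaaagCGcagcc
Il17a: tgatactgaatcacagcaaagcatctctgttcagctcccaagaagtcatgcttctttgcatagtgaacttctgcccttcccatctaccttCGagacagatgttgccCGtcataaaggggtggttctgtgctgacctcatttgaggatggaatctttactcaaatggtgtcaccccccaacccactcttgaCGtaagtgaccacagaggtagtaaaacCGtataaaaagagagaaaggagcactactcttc
These letters are given for reference only: a promoter window was matched for 73.4% of the genes tested, under 80%, so a comparison of CpG number or base composition between gene sets is void and was not made.

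Most genes that changed with deletion were not called with the inhibitor. KO cells differed from WT cells at 6618 genes (50.6% of those tested), whereas SGC0946 and SGC0649 cultures differed at 61 (0.467%; 1293 at an unadjusted p under 0.05). The SGC0946 count depended on the fit, with 140 calls by DESeq2, 100 without the filter on low counts and 511 when the 8 Th1 libraries were fitted alone, where the KO count was 6176, 6397 and 7669. The difference of effects was called for 4012 genes (30.7%), of which 1678 were higher (12.8%) and 2334 lower (17.9%). At least a 2-fold difference was reached by 762 of the higher and 722 of the lower genes. Of the 4012, 3837 were called in KO and not with SGC0946, 147 in neither effect, and 3887 (96.9%) had the larger change in KO. In all 4012 the 4 KO minus WT library differences lay apart from the 4 SGC0946 minus SGC0649 library differences. The same 8 libraries gave the calls, so this follows largely from the calls and is no separate support for them. Of the 6618 genes called in KO, 3861 (58.3%) were called in the difference. Leaving out SGC0946 replicate 1 left 2627 calls of the difference.

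**Figure D1:**
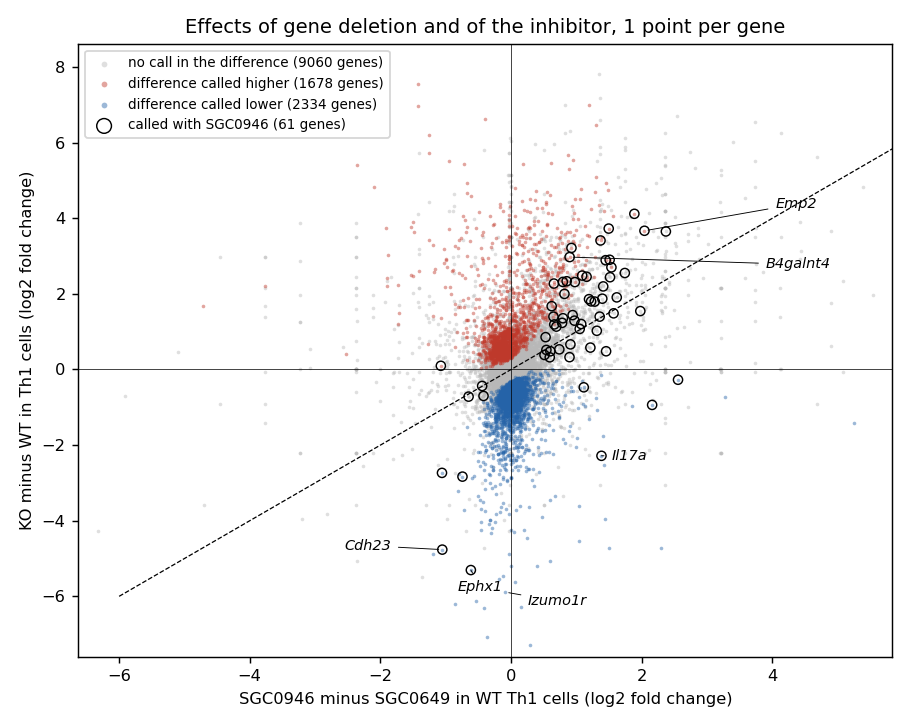
Deletion effect (vertical axis, log2 KO minus WT) against inhibitor effect (horizontal axis, log2 SGC0946 minus SGC0649) for 13072 genes, coloured by the call of the difference, with rings on the 61 genes called with SGC0946 and a dashed line of equal effects. The points spread along the vertical axis far more than along the horizontal one, and Il17a lies in the corner of opposite signs.

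Genes that rose and genes that fell in KO differed in how they stood with the inhibitor. The 1471 genes chosen for a rise of at least 2-fold in KO had a median log2 change of 2.05 in KO and 0.45 with SGC0946 (quartiles 0.02 and 0.88), and 1124 of them (76.4%) had a positive value with SGC0946. The 747 genes that fell at least 2-fold had a median of −1.45 in KO and −0.07 with SGC0946 (quartiles −0.22 and 0.08), and 463 of them (62.0%) had a negative value. Among all genes tested 48.1% had a positive and 50.9% a negative value with SGC0946. The KO and inhibitor effects share no library. The difference of effects was called in the deletion's direction for 703 of the 1471 genes that rose (47.8%) and for 663 of the 747 that fell (88.8%).

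The genes that rose were weakly expressed, with a median of 1.51 CPM in WT, against 53.1 CPM for those that fell, and the shares called were not compared at matched expression. The contrast in medians was also present within ranges of average log2 CPM. That average is taken over all 20 libraries, KO included, so WT levels were not matched between the sets. Among genes with an average log2 CPM from 4 to 6, the median with SGC0946 was 0.28 for 218 genes that rose in KO (78.4% positive) and −0.08 for 193 that fell (64.8% negative). At 6 and above it was 0.24 for 99 genes that rose (76.8% positive) and −0.07 for 330 that fell (65.2% negative). Genes with the strongest fall, below −3 in KO, reached −0.24 with SGC0946 (52 genes, 75% negative).

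**Figure D2:**
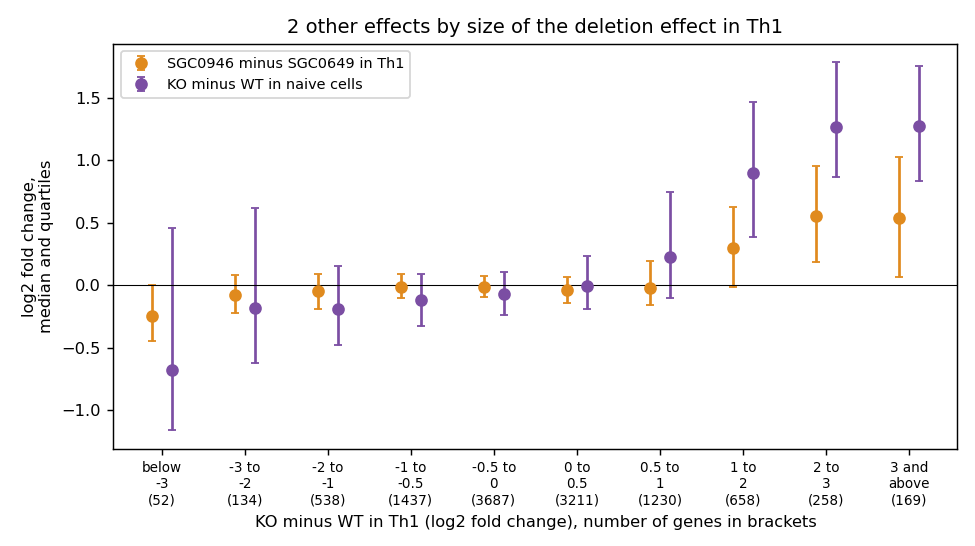
Median and quartiles of the inhibitor effect (orange) and of the deletion effect in naive cells (purple), both as log2 change, over genes grouped by the deletion effect in Th1 cells, limited to genes whose log2 CPM averaged 1 or more. Where the gene fell at least 2-fold in KO Th1 cells, the medians lie at −0.24 to −0.05 for the inhibitor and −0.68 to −0.18 for naive cells, and where it rose at least 2-fold they lie at 0.30 to 0.55 and 0.90 to 1.27.

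Before culture, the deletion effect was likewise farther from 0 for genes that rose in KO Th1 cells than for genes that fell. In naive cells KO differed from WT at 3708 genes (28.4%). The genes that rose at least 2-fold in KO Th1 cells had a median log2 change of 1.08 in naive KO cells, and those that fell had −0.20. Of the genes called higher in the difference of effects, 529 (31.5%) also rose in naive KO cells, where 16% of all genes tested did. Of those called lower, 597 (25.6%) also fell in naive KO cells, where 12.4% of all genes tested did. In the opposite direction, 85 (5.1%) of the higher genes fell in naive KO cells and 201 (8.6%) of the lower genes rose. Among all genes called in KO Th1 cells, 1846 (27.9%) were called in naive KO cells with the same sign.

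The 61 genes called with SGC0946 comprised 53 that rose and 8 that fell, and 53 of them (86.9%, or 0.801% of the KO list) were called in KO with the same sign, 46 up and 7 down. The number rests on the compound libraries: leaving out any 1 of them left 3 to 6 calls, whereas leaving out 1 KO or WT library left 49 to 58. In 43 of the 53 shared genes the KO effect was the larger, and in 23 the difference itself was called, each time with the larger effect in KO. The median log2 size over the 53 was 1.86 in KO and 0.98 with SGC0946, and the median of the ratio of inhibitor to KO effect was 0.617. Of the 53, 32 (60.4%) were also called with that sign in naive KO cells, as were 1846 (27.9%) of all genes called in KO Th1 cells. Since these genes were picked by their call with SGC0946, the sizes are a description.

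**Figure D3:**
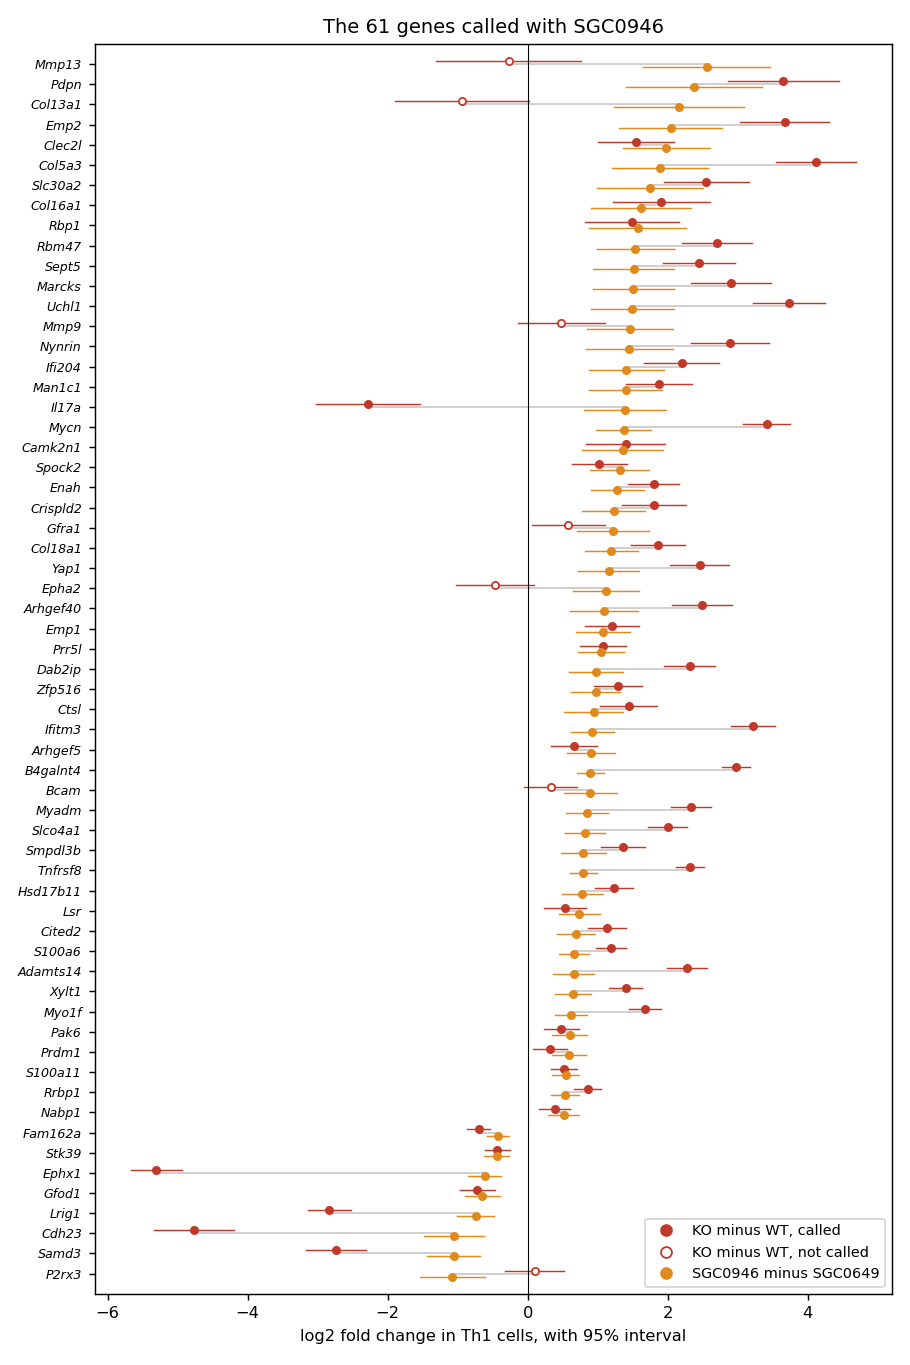
Log2 changes with 95% intervals for the 61 genes called with SGC0946, with the KO effect in red (open where not called) and the SGC0946 effect in orange, ordered by the SGC0946 effect. Red points lie farther from 0 than orange ones in most of the genes, and Il17a, Mmp13, Col13a1 and Epha2 have red points left of 0 with orange points right of it.

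Among genes that rose in both, B4galnt4, an N-acetylgalactosaminyltransferase that modifies glycans (chr7:141061274-141072119), was at 324 and 309 CPM in KO, against 40.5 and 40.1 in WT, and at 80.5 and 75 with SGC0946, against 43.4 and 40.2 with SGC0649. The KO libraries were highest, the SGC0946 libraries intermediate and both references at one level. The log2 changes were 2.97 in KO and 0.90 with SGC0946, and the difference was 2.08 (1.81 to 2.35, adjusted p = 1.2e-08). Mycn was at 38.2 and 34.2 CPM in KO, against 3.40 and 3.39 in WT, and at 8.08 and 9.21 with SGC0946, against 3.34 and 3.33 with SGC0649, a difference of 2.04 (1.51 to 2.58, adjusted p = 2.3e-05). The replicates of each group lay close together and both changes were upward. Ifitm3, an interferon-induced membrane protein that restricts virus entry, and Tnfrsf8, the TNF-family receptor CD30, had differences of 2.29 (adjusted p = 6.8e-07) and 1.52 (adjusted p = 4.8e-07), on SGC0946 effects of 0.92 and 0.79. Col5a3, a collagen chain, and Uchl1, a deubiquitinating enzyme, both differed by 2.23.

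Other shared genes moved by like amounts. S100a11 was at 140 and 130 CPM in KO, against 91.1 and 97.9 in WT, and at 139 and 134 with SGC0946, against 90.0 and 97.6 with SGC0649. Its KO and SGC0946 libraries lay at one level and both references at another, with log2 changes of 0.52 and 0.54 and a difference of −0.02 (−0.29 to 0.25). Emp1, a membrane protein of the epithelial membrane protein family, rose by 1.2 in KO and 1.07 with SGC0946 (difference 0.13, −0.42 to 0.68). Stk39, a kinase that controls ion cotransporters, had −0.44 in both (difference 0.01, −0.25 to 0.26). Prr5l, a component of a growth-signalling kinase complex, rose by 1.07 in KO and 1.05 with SGC0946. Pak6, a kinase, rose by 0.48 in KO and 0.60 with SGC0946, while Gfod1 fell by 0.72 in KO and 0.65 with SGC0946. In 7 of the 53 shared genes the interval of the difference lay within a 1.5-fold change either way; for the others without a call, the data do not show that the effects were alike.

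Of the 7 shared genes that fell, 4 had a difference called, each lower in KO. Ephx1, an epoxide hydrolase that detoxifies xenobiotics, was at 1.16 and 1.13 CPM in KO, against 44.2 and 47.2 in WT, and at 32.2 and 36.5 with SGC0946, against 47.1 and 58.0 with SGC0649. It was near 0 only in KO, with a difference of −4.69 (−5.14 to −4.24, adjusted p = 6.2e-10) and an SGC0946 effect of −0.62. Cdh23, a cadherin, Lrig1, a negative regulator of growth factor receptors, and Samd3 had differences of −3.71, −2.09 and −1.68.

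Il17a was the only gene called in both effects with opposite signs. It was at 7.51 and 2.82 CPM in KO, against 31.1 and 19.6 in WT, and at 95.8 and 103 with SGC0946, against 40.6 and 35.5 with SGC0649. Both KO libraries were below both WT libraries and both SGC0946 libraries above both SGC0649 libraries. The log2 changes were −2.28 in KO (adjusted p = 9.3e-05) and 1.38 with SGC0946 (adjusted p = 0.042), and the difference was −3.67 (−4.61 to −2.72, adjusted p = 4.3e-05). Among the 10 Th17 genes tested, only Il17a and Il1r1, the IL-1 receptor, were called in the difference, both lower, against 17.9% of all genes. The Il1r1 call was lost without WT replicate 1, KO replicate 1, SGC0649 replicate 2 or SGC0946 replicate 1, with differences of −0.86 to −0.99 there.

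A further 7 genes were called with SGC0946 and not in KO. Mmp13, a collagenase, was at 0.697 and 0.966 CPM in KO, against 0.679 and 1.32 in WT, and at 5.84 and 4.50 with SGC0946, against 1.01 and 0.740 with SGC0649. Its level was raised only in the SGC0946 pair, and the difference was −2.83 (adjusted p = 0.0043), or −2.29 (adjusted p = 0.053) without WT replicate 2. Col13a1, a transmembrane collagen, and Epha2, an ephrin receptor kinase, were likewise called lower in the difference, at −3.10 and −1.58. P2rx3, an ATP-gated ion channel, was at 33.4 and 33.7 CPM in KO, against 32.5 and 30.3 in WT, and at 10.8 and 12.1 with SGC0946, against 23.4 and 24.8 with SGC0649, a difference of 1.17 (adjusted p = 0.0071). Mmp9, Gfra1 and Bcam had no call in the difference, at −0.97, −0.63 and −0.57, although limma voom called Mmp9 (adjusted p = 0.043).

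**Figure D4:**
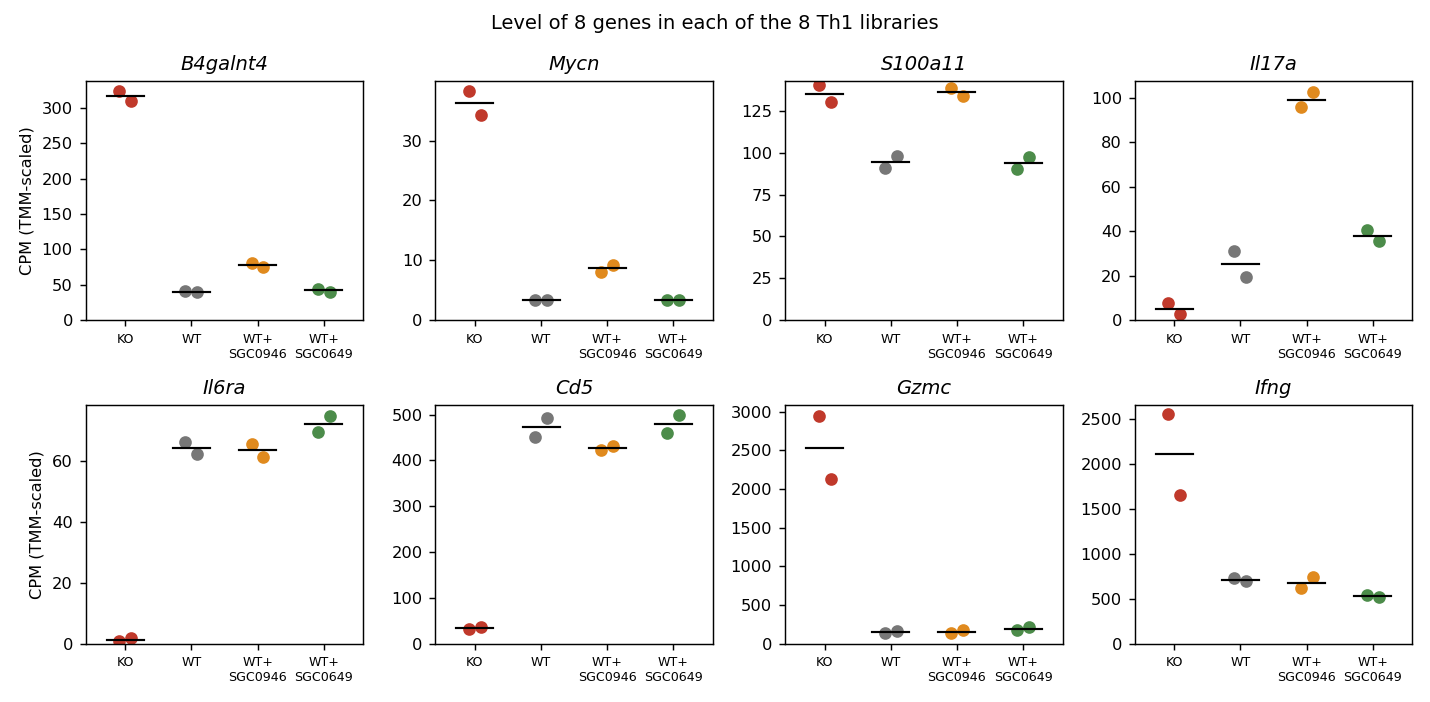
Level in CPM (linear axes from 0) of 8 genes in the 8 Th1 libraries, with each point a library and each line a group mean. B4galnt4 and Mycn are high in KO and intermediate with SGC0946, S100a11 is equally high in both, Il17a is low in KO and high with SGC0946, and Il6ra, Cd5, Gzmc and Ifng depart from the other groups in KO.

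Genes of naive and resting T cells were lower in the difference of effects. Of 19 tested, 16 were called lower and 0 higher, where all genes tested had 17.9% lower and 12.8% higher. The list's median difference was −1.61, against 0.00 over all genes tested, and its median with SGC0946 was −0.08. Tcf7, the transcription factor TCF-1 of naive and memory T cells, was at 64.4 and 94.3 CPM in KO, against 679 and 623 in WT, and at 569 and 550 with SGC0946, against 624 and 629 with SGC0649 (difference −2.87, adjusted p = 0.00042). Only the KO libraries were low. Klf2, which drives expression of exit receptors, Bach2, a repressor of effector genes, and Ccr7, the homing chemokine receptor, had differences of −3.60, −3.65 and −2.25.

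Genes that define or signal through the T cell receptor were lower too. Of 18 tested pan-T genes, 15 were called lower (all genes: 17.9%) and Thy1 higher (all genes: 12.8%), with a median difference of −0.87. Their summed level was 7032 and 6951 CPM in KO, against 13458 and 13329 in WT, and 13868 and 13168 with SGC0946, against 13137 and 13280 with SGC0649. Cd5, an inhibitory coreceptor of T cells, was at 33.0 and 36.8 CPM in KO, against 452 and 492 in WT, and at 424 and 432 with SGC0946, against 460 and 498 with SGC0649 (difference −3.59, adjusted p = 1.1e-09). Cd4 itself, the coreceptor used for the sort, had a difference of −2.43 (adjusted p = 3e-08) and an SGC0946 effect of 0.11 (−0.12 to 0.35). The receptor chain Cd3e and the kinases Lck and Zap70 were called lower at −0.43, −0.68 and −0.83, and Thy1, a surface glycoprotein of T cells, was higher at 0.58. In bulk RNA, fewer cells of a type and less RNA per cell cannot be told apart.

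Costimulatory, regulatory and follicular T cell genes had calls mostly on the lower side, where all genes tested had 17.9% lower and 12.8% higher. The costimulatory list had 7 of 13 lower and 3 higher, with Cd28 at −1.46, Icos at −0.98 and Tnfrsf8 among those higher. The regulatory T cell list had 8 of 16 lower and 1 higher, with Foxp3, the defining transcription factor of these cells, at 1.47 and 1.13 CPM in KO, against 24.9 and 24.5 in WT, and at 18.6 and 19.7 with SGC0946, against 18 and 20.4 with SGC0649. Its difference was −4.22 (adjusted p = 8.1e-08), and Il2ra, the IL-2 receptor alpha chain, was the member called higher (0.61, and 0.50 with adjusted p = 0.073 without SGC0946 replicate 1). Among the lowest differences was that of Izumo1r, the folate receptor family member of T cells (chr9:14885814-14903949), at 2.55 and 6.60 CPM in KO, against 260 and 281 in WT, and at 311 and 264 with SGC0946, against 309 and 303 with SGC0649 (−5.80, −6.41 to −5.18, adjusted p = 4.5e-09). Gpr83 and Lrrc32, both surface proteins of regulatory T cells, were at −5.67 and −5.34, and Tns4, an adaptor of focal adhesions, at −5.59. Follicular helper genes had 7 of 13 lower and 0 higher, among them Il21 at −1.5, with values of 0.82 for SGC0946 (adjusted p = 0.065) and −0.68 for KO (adjusted p = 0.0061).

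Cytokine receptors and their signal transducers formed another lower group. Of 22 receptor genes 11 were called lower and 1 higher, beside 17.9% lower and 12.8% higher among all genes tested. Of 16 JAK, STAT and SOCS genes 10 were called lower and 1 (Socs2, 1.00) higher. The Socs2 call was lost without either WT library, KO replicate 1, SGC0649 replicate 2 or SGC0946 replicate 1, at 0.76 to 1.01. Il6ra, the IL-6 receptor alpha chain (chr3:89864059-89913196), was at 1.01 and 1.77 CPM in KO, against 66.4 and 62.3 in WT, and at 65.8 and 61.6 with SGC0946, against 69.7 and 74.9 with SGC0649. KO libraries alone were near 0, with a difference of −5.35 (−5.87 to −4.82, adjusted p = 6.2e-10) and an SGC0946 effect of −0.18 (−0.45 to 0.09). Jak1 and Stat5a, a kinase and a transcription factor that act below many cytokine receptors, had −0.74 and −0.78, and Cish, a feedback inhibitor, −0.96.

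Genes of the Th1 programme had calls in both directions, as did all genes tested (12.8% higher and 17.9% lower). Of 24 genes 5 were called higher and 7 lower, with a median difference of −0.43. Those called higher numbered 2 without KO replicate 1, and 3 without WT replicate 2, without SGC0946 replicate 1 or without the filter on low counts. Ifng was at 2559 and 1658 CPM in KO, against 727 and 700 in WT, and at 616 and 739 with SGC0946, against 547 and 523 with SGC0649. Both KO libraries exceeded all others but lay apart from each other, and the difference was 1.22 (0.47 to 1.97, adjusted p = 0.017), with 0.86 (adjusted p = 0.082) when KO replicate 1 was left out. The call was also lost without WT replicate 2, without SGC0946 replicate 1, and without the filter on low counts. Ccl3 (1.8) and Tnf (1.10), inflammatory mediators, Il18rap (0.89), a chain of the IL-18 receptor, and Havcr2 (0.74), the receptor TIM-3, were the other members called higher. The Havcr2 call was lost without any 1 of the 8 libraries, at 0.65 to 0.80, and that of Il18rap without KO replicate 1, at 0.76.

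Tbx21 was at 200 and 201 CPM in KO, against 287 and 272 in WT, and at 314 and 300 with SGC0946, against 282 and 271 with SGC0649. The KO libraries alone lay below the rest, and the difference was −0.63 (−1.01 to −0.25, adjusted p = 0.015). Cxcr3, the Th1 chemokine receptor, and Il12rb2, the IL-12 receptor chain of Th1 cells, were at −2.54 and −0.60.

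Th2 genes, which the Th1 culture holds low, were 8 lower and 4 higher of 22 tested. Among all genes tested 17.9% were lower and 12.8% higher, and the count of higher Th2 genes is close to that share. Il1rl1, the IL-33 receptor, which mast cells also carry, was higher (2.70) and the cytokine Il5 lower (−2.68). Gata3, the transcription factor of Th2 cells, was at 11.3 and 11.8 CPM in KO, against 35.3 and 39.5 in WT, and at 40.7 and 35.6 with SGC0946, against 40.1 and 36.5 with SGC0649 (difference −1.69, adjusted p = 4.1e-05). Il13, a Th2 cytokine, had a difference of −2.27 (adjusted p = 0.0011), and Il4 had −0.78 (−1.97 to 0.40, adjusted p = 0.30, and −1.82 with adjusted p = 0.019 without SGC0649 replicate 2). Only KO was low for Gata3 and Il13, and the libraries of Il4, at 2.33 to 7.03 CPM, were too few in counts for a narrow interval. Maf, a transcription factor that promotes IL-4 and IL-10, had −0.57 in KO (adjusted p = 0.044) and 0.91 with SGC0946 (adjusted p = 0.085), and a difference of −1.48.

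Cytotoxic genes were higher in the difference of effects, 12 of 20 tested (all genes: 12.8%), with 0 lower (all genes: 17.9%) and a median of 1.51. Gzmc, a granzyme (chr14:56231401-56234656), was at 2951 and 2125 CPM in KO, against 144 and 162 in WT, and at 139 and 176 with SGC0946, against 182 and 212 with SGC0649 (difference 4.37, 3.51 to 5.23, adjusted p = 5e-06). The KO libraries stood far above the other 6. Prf1, the pore-forming protein perforin, was at 1.81 with an SGC0946 effect of 0.49 (0.13 to 0.84, adjusted p = 0.27). Gzmb, the main granzyme of killer cells, had 1.21, Gzma 3.54, and Klrg1, an inhibitory lectin receptor of effector cells, 4.65. Granzyme genes have near copies and multimapping reads were not counted, so their values are uncertain.

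**Figure D5:**
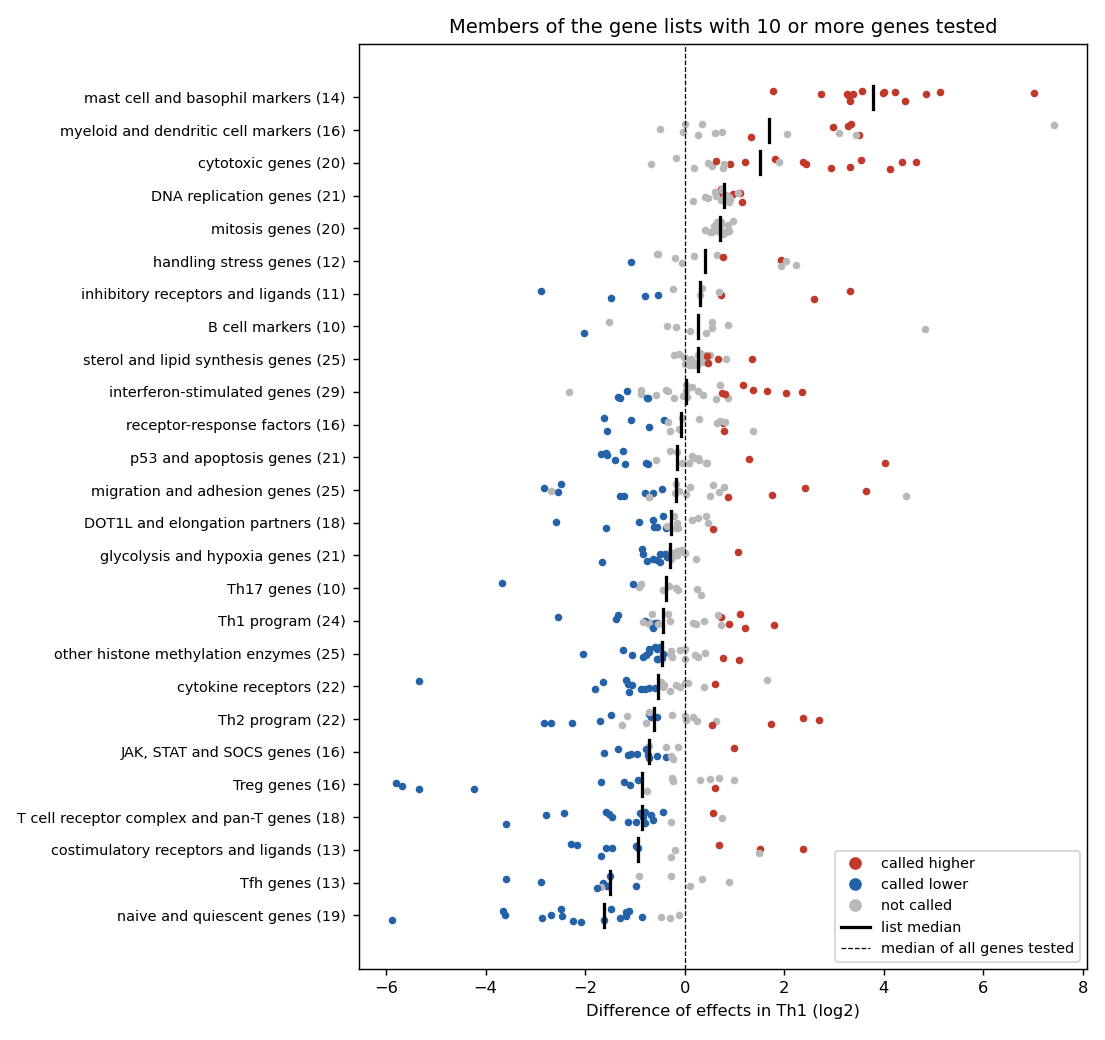
Difference of effects (log2) of the members of each list with 10 or more genes tested, with points coloured by call, a bar at the list's median and a dashed line at the median of all genes. Naive and follicular genes lie farthest to the left, at medians of −1.61 and −1.5, and mast cell and basophil markers farthest to the right, at 3.78.

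Markers of mast cells and basophils were called higher for 14 of 14 genes tested (all genes: 12.8%), with a median difference of 3.78. Their summed level was 2584 and 1127 CPM in KO, against 207 and 157 in WT, and 270 and 239 with SGC0946, against 252 and 231 with SGC0649, and no marker was at 0 in all 8 libraries. Cpa3, the mast cell carboxypeptidase, was at 1112 and 438 CPM in KO, against 74.7 and 57.2 in WT, and at 96.4 and 91.5 with SGC0946, against 92.3 and 74.6 with SGC0649. KO replicate 1 was more than 2-fold above KO replicate 2 for Cpa3, and both were above all WT libraries. Without either KO library in turn, or any other of the 8, 13 or 14 of the markers were called. Mast cell proteases and other genes named by the size of their difference had the following values. Mcpt2, a mast cell protease with near copies, was at 53 and 23 CPM in KO, against 0.509 and 0.248 in WT, and at 1.08 and 0.801 with SGC0946, against 1.01 and 1.48 with SGC0649 (7.02, 4.55 to 9.49, adjusted p = 0.00047). The mast cell proteases Mcpt1 and Tpsb2 had 4.85 and 5.13, Maob, a monoamine oxidase, 4.76, P2ry12, an ADP receptor, 4.68, and Pilrb2 5.66. Cd34, a sialomucin of progenitor and mast cells, had 5.20, and the transcription factor Gata2 had 3.25.

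Markers of natural killer cells had 4 of 7 higher (2 without KO replicate 1 or SGC0649 replicate 2), at a summed level of 71.6 and 39.1 CPM in KO, against 21.9 and 23.3 in WT, and 22.4 and 29.0 with SGC0946, against 31.8 and 31.5 with SGC0649. Among all genes tested 12.8% were called higher, which is the share to set beside each count of markers called higher in this paragraph. Of the 4 natural killer markers called higher, Ncr1, the activating receptor NKp46, had 3.22 and Klrb1c, the marker NK1.1, 2.58. The Klrb1c call was lost in 5 of the 8 fits that leave out 1 library (1.81 without KO replicate 1) and with limma voom. Myeloid markers had 5 of 16 higher (3 without SGC0946 replicate 1), among them Cd14 (2.98), the endotoxin coreceptor, and Fcer1g (3.34) and Tyrobp (3.51), adaptor proteins that mast and natural killer cells also use. The Cd14 call was lost with limma voom and in 7 of the 8 fits that leave out 1 library, at 2.45 to 3.49. Summed myeloid levels were 597 and 726 CPM in KO, against 427 and 472 in WT. They were 681 and 687 with SGC0946, against 498 and 548 with SGC0649, so they were higher there too. In the difference 11 of the 16 had no call. Of 10 B cell, 8 erythroid and 6 stromal markers 0 were called higher, and 1, 0 and 2 lower (all genes: 17.9%). Their median log2 KO changes were −0.58, 1.36 and 1.69. Erythroid sums were only 13.2 and 10.95 CPM in KO, against 3.99 and 2.65 in WT. The lack of higher calls thus does not show these markers unchanged. The part of such cells in the values of the cytotoxic and T cell genes was not tested.

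Genes of DOT1L's own complexes had the following calls, beside 17.9% lower and 12.8% higher among all genes tested. Of 18 genes of DOT1L and its elongation partners 8 were called lower and 1 (Eaf1) higher, with a median difference of −0.28. Aff3 and Mllt3, members of the elongation complexes, were at −2.58 and −1.58, and Kmt2a, of the same list, at −0.61. Of 25 other histone methylation enzymes 14 were lower, among them Kmt2d (−0.72) and Setd2 (−0.45). In that list 2 were higher, the lysine 9 methyltransferases Suv39h1 (0.76) and Suv39h2 (1.10). The Suv39h2 call was lost without any 1 of the 8 libraries (0.99 to 1.17), that of Suv39h1 in 4 of these fits (0.62 without KO replicate 2), that of Kmt2d in 5 (−0.63 without KO replicate 1) and that of Kmt2a without KO replicate 1 (−0.48). Of 5 genes of the HOXA and MEIS group, known as DOT1L targets in leukaemia, 3 were called higher in the difference, Pbx3, Flt3 and Meis1, and 1 to 4 when a library was left out. The Flt3 call (1.63) was lost with limma voom and in 6 of the 8 fits that leave out 1 library, with 0.78 (adjusted p = 0.45) without SGC0649 replicate 1, and that of Pbx3 (1.57) without the same library (1.29, adjusted p = 0.054). Meis1 had 89 counts in the KO libraries together and 3 in the WT libraries, a ratio of 27.9 (9.26 to 138, counting error only), and its call was lost without SGC0649 replicate 2. The HOXA and MEIS list holds 12 genes, of which only 5 had enough counts to test. Among the Th1 libraries Meis1 had more than 6 counts only in KO (57 and 32). A gene can thus enter the test through the group where it is high, so 3 of 5 is no share of the list.

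The lists that follow stand beside 12.8% higher and 17.9% lower among all genes tested, and a count near those shares is no result about its list. DNA replication genes had 5 of 21 called higher, the helicase factors Gins2 (1.11) and Mcm6 (0.69), the synthase Tyms (1.16), and the regulators Ccne2 (0.98) and E2f1 (0.73), and 0 lower, with a median of 0.79, with 10 calls by DESeq2, 8 by limma voom and 0 to 4 when any 1 of the 8 libraries was left out. Mitosis genes had 0 of 20 called in either direction by edgeR, DESeq2 or limma voom, and 0 at an unadjusted p under 0.05, at a median of 0.70, with medians of 0.45 in KO and −0.23 with SGC0946. Glycolysis and hypoxia genes had 10 of 21 lower (6 without WT replicate 2) and 1 higher, with Hk1, a hexokinase, at −0.85, Slc2a3, a glucose transporter, at −0.84 and Hif1a, the hypoxia factor, at −0.56. The member called higher was Gapdh, which has many near copies. Its difference turned to −0.50 when WT cultures without compound served as reference of both effects, which leaves KO minus SGC0946. Sterol and lipid synthesis genes had 4 of 25 higher, Scd1, Fasn, Sqle and Lss, and 0 lower, with 1 or 2 called higher when any 1 library was left out. The p53 and apoptosis genes had 8 of 21 lower and 2 higher, with Bcl2, which blocks cell death, at −1.40 and the death receptor Fas at −1.56. Interferon-stimulated genes had 7 of 29 higher and 5 lower at a median of 0.03. Inhibitory receptors had 3 of 11 higher, Cd244 (3.32), Cd160 (2.61) and Havcr2, and 4 lower, among them the ligand Cd274 (−1.48), known as PD-L1. Migration and adhesion genes had 4 of 25 higher (2 without WT replicate 2, KO replicate 1 or any 1 compound library) and 8 lower. Transcription factors and early genes of the receptor response had 2 of 16 higher (0 without SGC0946 replicate 1) and 5 lower. Handling stress genes had 2 of 12 higher and 1 lower, and mitochondrially encoded genes 0 of 7 higher and 1 lower, with 1 to 2 in each direction of the first list and 0 to 3 lower in the second when a library was left out. In the list directions with 0 calls by edgeR, DESeq2, limma voom and an unadjusted p under 0.05 gave at most 1 gene in a list. Over all these lists the inhibitor itself gave 3 calls, Il17a, Tnfrsf8 and Pdpn, all upward.

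Some of the lowest values rest on few counts. Plce1 had 0 counts in the KO libraries and 7 in the WT libraries, with a counting interval of the ratio of 0 to 0.653. Dapl1 had 1 count in KO and 96 in WT, a ratio of 0.00981 (0.000246 to 0.0560), and Ksr2 had 1 in KO and 28 in WT, a ratio of 0.0336 (0.000823 to 0.203). Dnase1l3 had 1 count in KO, 3 in WT, 9 with SGC0946 and 0 with SGC0649, too few for a direction. The calls of Plce1 and Dnase1l3 were each lost in 5 of the 8 fits that leave out 1 library. On the high side, Vwf had 119 counts in KO and 1 in WT, a ratio of 112 (19.7 to 4464). Pilrb2 had 61 counts in KO, 4 in WT, 2 with SGC0946 and 8 with SGC0649. Its ratio of SGC0946 to SGC0649 was 0.245 (0.0253 to 1.23), so the inhibitor part of its difference rests on few counts. These intervals cover counting error only.

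The called genes were spread over the genome. On the autosomes and the X chromosome 10.1% to 14.5% of genes tested were called higher and 14.1% to 20.9% lower. All 4 Y-linked genes tested were called lower, Ddx3y for example at 63.8 and 74.1 CPM in KO, against 118 and 123 in WT, and at 120 and 126 with SGC0946, against 119 and 124 with SGC0649 (difference −0.82, or −0.73 with adjusted p = 0.059 without KO replicate 1). The 4 of 4 Y-linked calls stand beside 17.9% lower among all genes tested. The sex of the mice is not among the sample fields used here, and its part in these calls was not tested. Genes called lower had a median exonic length of 5168 bases, those called higher 3540, and all genes tested 3988. Their median genomic spans were 32538, 20120 and 22964 bases. The median levels of these sets in WT Th1 cells were 89.0, 20.9 and 27.7 CPM. Lengths were not compared at matched expression, and the part of detection in them was not tested.

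The same difference of effects was formed in T helper 2 cultures from other libraries of the series, where it was called for 4179 genes (32.0%). Of the genes called higher in Th1, 463 (27.6%) were called higher in Th2, where 15% of all genes tested were, and 174 (10.4%) were called lower. Of those called lower in Th1, 742 (31.8%) were called lower in Th2, where 17% of all genes tested were, and 266 (11.4%) were called higher. The Th1 minus Th2 difference itself was called for 3314 genes (25.4%).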

How the data were processed

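Total RNA libraries were counted per gene by the authors with featureCounts 1.5.3 (strand setting 2, Ensembl release 84 of GRCm38), per the file headers, and the deposited values are raw counts. Gene lengths in bases were deposited beside them and were not tested. Tools named in the submitters' processing notes are edgeR, limma and featureCounts, and no aligner is given in the sources used here.

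Protein-coding genes passing filterByExpr (minimum count 10, total 15) were tested in edgeR 4.0.16 under R 4.3.3. TMM scaling and a robust quasi-likelihood fit of all 20 libraries with 1 mean per group were used (common coefficient of biological variation 0.0963 on 10 residual degrees of freedom). Calls are at an adjusted p under 0.05, with Benjamini-Hochberg adjustment over 13072 genes. SE is the size of the log2 change over the root of F, and intervals are at 95%. CPM values are TMM-scaled. The fit was also tested on simulated counts.

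The genes named whatever their result were Cd4, Dot1l, Gata3, Ifng, Il13, Il4 and Tbx21, followed by the 8 highest and 8 lowest differences among called genes whose log2 CPM averaged 1 or more and whose library differences lay apart, the largest and smallest differences among genes called in both effects, and called list members. Members and lists were chosen with earlier results of these data known. Other genes called with SGC0946 and further list members were named after their values were seen. Alternatives were DESeq2 1.42.0, limma voom 3.58.1, other scaling, filters, gene classes and references, a replicate block, and leaving out each library.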

Additional observations from a re-analysis of the deposited data

Results flagged for a closer look

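The difference of effects in Th1 was set against the same difference in Th2 for 23 named genes, by a test of Th1 minus Th2 in the same fit (edgeR, Benjamini-Hochberg over all genes tested), and 10 of them differed, where 25.4% of all genes tested did. Of the 23, 16 were named for the size of their Th1 difference, which is itself a term of this test, so their values are a description; of the 10, Tbx21 and Cd4 alone were named whatever their result. Tbx21 had −0.63 in Th1 and 0.96 in Th2 (−1.59, adjusted p = 0.00094). Mcpt1, a mast cell protease, had 4.85 in Th1 and −2.20 in Th2 (7.05). Mcpt2 (5.94), Cd34 (4.85) and Vwf (5.07) were also higher in Th1 than in Th2. Izumo1r (−2.45), Gpr83 (−3.42), Tns4 (−2.88), Il6ra (−1.5) and Cd4 (−0.66) were lower in Th1 than in Th2, each being below 0 in both. With 2 libraries a group, no test for a library that stands apart was possible.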

How the results depend on the processing

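The call count of the difference of effects (4012) was 2238 at an adjusted p under 0.01, 6989 with WT cultures without compound as reference of both effects, and 2627 to 3472 when each library was left out, and stayed within 1.5 times elsewhere. With WT as reference of both effects, the WT term cancels and KO minus SGC0946 remains. Its median SE was 0.149, against 0.209 for the difference of effects. DESeq2 shared 3683 and limma voom 3902 of the 4012 calls. Genes called higher numbered 2730 in the 8 Th1 libraries alone, 3415 with the common reference and 877 to 1292 with a library left out, and genes called lower 3574 with the common reference. The 61 SGC0946 calls were 140 with DESeq2, 100 without the filter, 511 in the 8 libraries alone, 136 with the replicate block and 3 to 58 with a library left out. For the 53 called in both effects these were 115, 83, 353, 111 and 3 to 49. SGC0649 against no compound gave 21 calls with DESeq2, 1 with limma voom, 4 without the filter, 52 in the 8 libraries alone and 1 to 2 with a library left out. The causes were not tested. Of 2782 comparisons of single genes, 149 lost the call, 13 gained one and 1 reversed (Gapdh, −0.50 with the common reference).

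The labels do not tie same-numbered libraries to a shared source, so the numbers were not taken as pairs. As a hint from the data, deviations of same-numbered libraries correlated at 0.27 to 0.42 among the WT groups and at −0.07 to 0.12 between KO and these. The replicate block gave 4517 calls in the difference. Depth limited genes with few counts, such as Dnase1l3.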
